A study of Mus musculus with 6 samples.

Results

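The scavenger and pattern lectin receptors followed here are 10 mouse genes, chosen by name: Msr1, Cd36, Marco, Mrc1, Stab1, Scarb1, Cd68, Clec7a, Lgals3 and Cd163. They are 10 of the 40202 genes listed in the deposited table of normalised reads. The measurements are total RNA sequencing of BV2, an immortalised microglial cell line from C57BL/6 mice. A group of 3 Control samples was untreated, and a group of 3 FL-ApoE4 samples was incubated for 5 h at 25 µg/ml with FL-ApoE4, the full-length human form of apolipoprotein E4, a protein that carries lipid. All 6 samples came from the same line and medium with fetal bovine serum. The labels do not say whether Control cells received the carrier solution of the protein, nor whether replicates were grown as separate cultures. The p-values therefore cover only how far these libraries spread, and that spread could be technical. The comparison asked which transcripts differ in BV2 cells after treatment with the full-length protein. The library kit keeps strand, but whether counting used it is not stated, so reads of overlapping antisense genes may be included.

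Scavenger receptors are surface and endosomal proteins that bind modified lipoproteins, microbial polyanions, dying cells and protein aggregates and carry them into the endocytic pathway. Pattern lectins recognise sugars, such as the mannose of glycoproteins or the beta-glucan of fungal walls. In microglia and macrophages both kinds serve the clearance of debris and lipid, and several of their genes are controlled by the myeloid transcription factor PU.1, encoded by Spi1.

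Libraries held 45700128 to 54965393 reads assigned to genes, so among the receptors with reads counting error is small except for Cd36. Control replicate 1 stood apart from the other 5 libraries on the first principal component (38.5% of the variance over 14079 tested genes). For that reason the receptors, and the related genes named as called without that library, are given both with all libraries and without it. Without it only Control replicates 2 and 3 remain, and they lay close together (a median difference of 0.06 on the log2 scale over 3271 genes with a mean of 500 to 2000 normalised reads), so the spread of controls may be understated there. In FL-ApoE4 replicate 1, deviations from the group mean ran against exonic length (Spearman rho of -0.427 across genes, which are not independent replicates). The cells carried the 12 fixed microglia and macrophage markers, each at a mean of 176 normalised reads or more. Their summed level was 163987 to 178844 in Control and 186164 to 193184 with FL-ApoE4, so it did not overlap between the groups. Taken singly, 11.1% of all tested genes were separated in that direction. The sum leans on abundant markers and does not speak for each of the 12. Csf1r alone was at 45849 to 49399 normalised reads in Control and 52745 to 57740 with FL-ApoE4 (limma adjusted p = 0.189, all libraries). Without Control replicate 1, limma called Adgre1, Spi1, Ptprc, Irf8 and Cx3cr1 of this list, and 4.62% of all tested genes. With all libraries it called 0% of all tested genes. Only Spi1 of these markers is given with its values below, and the direction of the others is not reported here. No marker was at 0 in all libraries in the lists of neurons, oligodendrocytes, endothelial and dendritic cells, against 1 each for astrocytes, fibroblasts and B cells, 2 for neutrophils and 3 for T cells. Marker lists of fibroblasts, B cells and neutrophils had no gene at a mean of 20 or more. Of the other lists, those of neurons and T cells had 1 such gene each (Tubb3 and Cd4), those of astrocytes, oligodendrocytes and endothelial cells 2 each (among them Slc1a2, Slc1a3, Mbp, Kdr and Vwf) and that of dendritic cells 4 (Zbtb46, Itgax, Batf3 and Xcr1). The summed levels of these lists overlapped between the groups, except for neurons (83.5 to 87.6 normalised reads in Control and 61.2 to 80.3 with FL-ApoE4), and their part in the results was not tested. Taken singly, 10.9% of all tested genes were separated in the direction of the neuron sum. In bulk RNA, fewer cells with a transcript and less transcript per cell cannot be told apart.

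Of the 10 receptors, 8 were measured at a mean of at least 10 normalised reads and tested. Clec7a and Cd163 are listed at 0 in all 6 libraries. With all libraries, 0 of the 8 were called by limma at an adjusted p under 0.05, where 0% of all 14079 tested genes were called. At an unadjusted p under 0.05 the count was also 0 of 8, against 13.1% of all tested genes. The edgeR quasi-likelihood test and DESeq2 on recovered reads called 0 of the 8 as well, where edgeR called 0% of all tested genes and DESeq2 2.85% of the 12897 genes with an adjusted p. Their median log2 fold change was 0.02 (0.00 over all tested genes), with 6 positive and 2 negative values. Marco had the largest difference, 1.53 times as high with FL-ApoE4 in group means, and Cd36 the next, 0.814 times as high. The other 6 differed by at most 0.07 on the log2 scale. Without Control replicate 1, Marco was the 1 receptor called, where 4.62% of all tested genes were called.

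**Figure D1:**
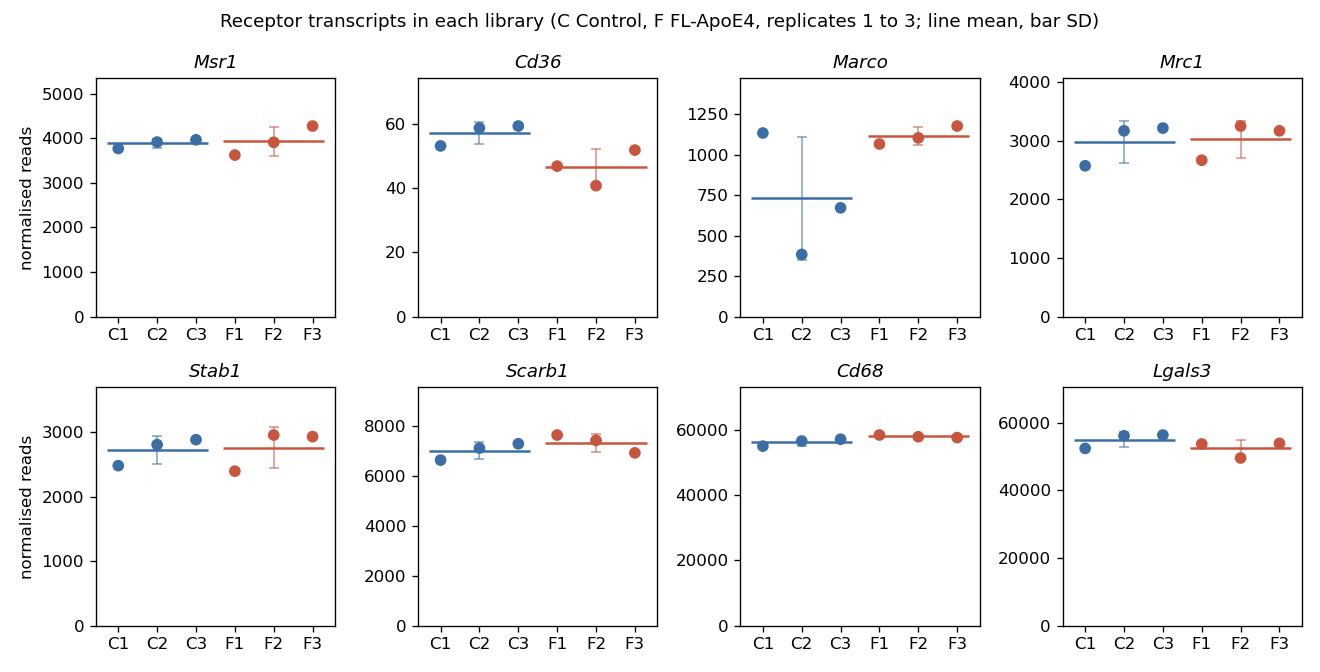
Normalised reads (vertical axis, from 0) of the 8 measured receptors in each library (horizontal axis; C, Control; F, FL-ApoE4; replicates 1 to 3), with the group mean as a line and the SD as a bar. Marco in the Control group spreads from 383 to 1133, while its FL-ApoE4 libraries lie between 1065 and 1176.

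The promoters of Marco, Mrc1, Stab1 and Cd68 are shown because Marco carried the largest difference, Mrc1 and Stab1 varied together, and Cd68 was the most abundant receptor per length. Each runs 5′ to 3′ in the direction of the gene, from 250 bases before to 50 after the RefSeq start (build GRCm38.p6, not the build of the deposited values). Capitals mark the motifs described after the sequences.
Marco, chr1:120504975-120505274, minus strand: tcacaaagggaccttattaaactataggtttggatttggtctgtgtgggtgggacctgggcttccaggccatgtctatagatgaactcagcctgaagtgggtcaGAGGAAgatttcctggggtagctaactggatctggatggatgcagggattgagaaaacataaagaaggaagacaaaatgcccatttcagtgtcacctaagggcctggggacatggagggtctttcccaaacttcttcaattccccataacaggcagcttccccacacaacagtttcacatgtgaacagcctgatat
Mrc1, chr2:14229164-14229463, plus strand: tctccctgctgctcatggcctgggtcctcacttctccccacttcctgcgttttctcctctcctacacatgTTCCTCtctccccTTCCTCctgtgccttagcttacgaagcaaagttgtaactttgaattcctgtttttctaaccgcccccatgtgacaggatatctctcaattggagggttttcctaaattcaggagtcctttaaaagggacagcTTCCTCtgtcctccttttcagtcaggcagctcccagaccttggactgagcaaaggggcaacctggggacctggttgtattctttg
Stab1, chr14:31168592-31168891, minus strand: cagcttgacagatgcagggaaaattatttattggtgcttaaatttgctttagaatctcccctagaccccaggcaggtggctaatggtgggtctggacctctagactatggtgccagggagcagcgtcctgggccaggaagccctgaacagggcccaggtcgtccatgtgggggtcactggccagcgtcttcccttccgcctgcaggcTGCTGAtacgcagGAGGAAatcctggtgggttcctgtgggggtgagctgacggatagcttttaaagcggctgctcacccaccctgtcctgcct
Cd68, chr11:69666121-69666420, minus strand: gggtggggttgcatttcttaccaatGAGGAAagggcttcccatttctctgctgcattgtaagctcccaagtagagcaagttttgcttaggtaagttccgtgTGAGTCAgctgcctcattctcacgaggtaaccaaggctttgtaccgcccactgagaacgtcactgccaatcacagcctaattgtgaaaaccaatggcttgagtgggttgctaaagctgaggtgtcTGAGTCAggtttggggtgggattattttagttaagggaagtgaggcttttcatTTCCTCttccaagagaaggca

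Promoters were found for 8 of the 10 receptors, all but Msr1 and Scarb1, and searched on both strands for 6 motifs: the PU.1 core GAGGAA, AP-1 TGANTCA, the MAF core TGCTGA, the antioxidant response element core TGACNNNGC, the CLEAR core TCACGTG of TFEB and a TATA box TATAAA. The PU.1 core was present in Marco (once), Mrc1 (3 times), Stab1 (once), Cd68 (2 times) and Clec7a, and 28.1% of the 32544 promoters hold it. AP-1 was found 2 times in Cd68 and in no other receptor promoter, against 7.79% of all promoters. The MAF core lay in Stab1 and Cd36 (19.5% of all promoters), and a TATA box in 1 of the 2 Clec7a entries, near its downstream end (13.6%). In Stab1 the MAF core at positions -43 to -38 lay just before the PU.1 core at -30 to -25, counted from the start. The antioxidant element (12.4%) and the CLEAR core (3.79%) were in no receptor promoter searched. A match shows that these letters are present and no more.

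Marco encodes a class A receptor with a collagen-like stalk that binds bacteria and particles and is inducible in macrophages. It was at 1133, 383 and 671 normalised reads in Control replicates 1 to 3 and at 1065, 1103 and 1176 in FL-ApoE4 replicates 1 to 3. The treated libraries sat within 1.1 times of each other, and the Control libraries spread 2.96-fold, with Control replicate 1 inside the treated range. Group means were 729 ± 378 and 1115 ± 56 (SD, n = 3 each). Their log2 fold change was 0.75 ± 0.34 (SE, limma adjusted p = 0.407), with a 95% interval of -0.04 to 1.53, so the groups did not differ beyond their spread. The authors' deposited table gives 0.61 ± 0.44 with an adjusted p of 0.666, and 2.85% of the genes with an adjusted p in it were under 0.05.

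Without Control replicate 1, Marco rose by 1.13 ± 0.19 on the log2 scale (limma adjusted p = 0.0134, higher in 3 of 3 treated libraries than in either remaining control), or 2.12 times the mean of Control replicates 2 and 3. In that comparison 2.93% of all tested genes were called higher and 1.69% lower. The share of all tested genes whose groups separated there was not counted. With Control replicate 1 kept, the value was 0.35 without Control replicate 2 (adjusted p = 0.593) and 0.76 without Control replicate 3 (adjusted p = 0.512), both from limma. The remaining controls were themselves unlike for this gene, since Control replicate 3 was 1.75 times as high as Control replicate 2. Relative to Control replicate 3 the treated mean was 1.66 times as high and relative to Control replicate 2 it was 2.91 times as high. What set Control replicate 1 apart was not tested.

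**Figure D2:**
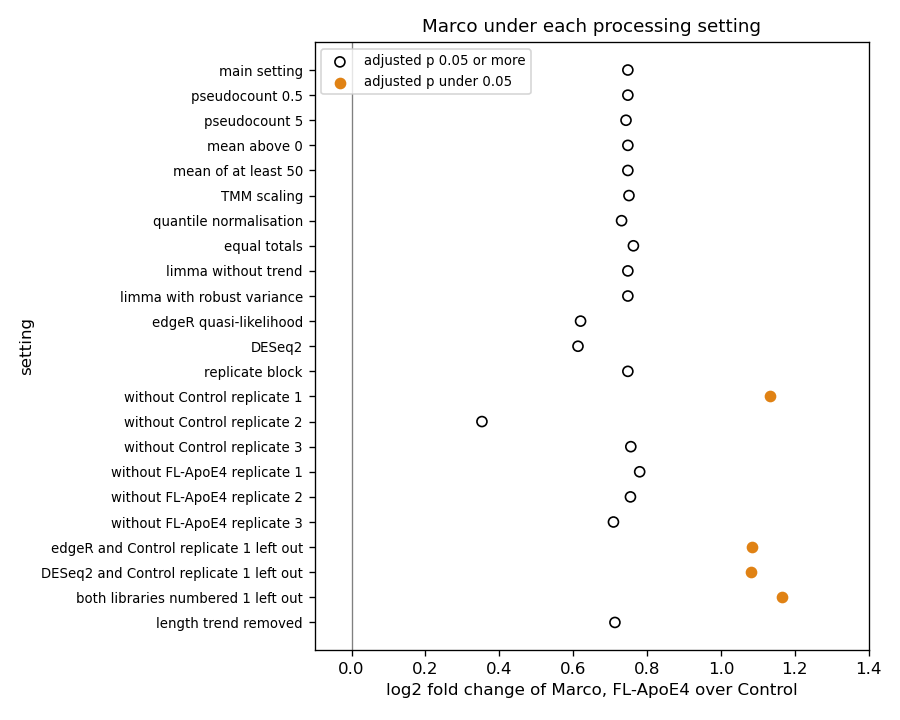
Log2 fold change of Marco, FL-ApoE4 over Control (horizontal axis), under each processing setting (vertical axis). Filled points have an adjusted p under 0.05; these are the 4 settings without Control replicate 1, at 1.08 to 1.17, and the value is positive in all settings shown.

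Msr1 encodes the other class A receptor, the macrophage scavenger receptor that takes up acetylated and oxidised low-density lipoprotein. It was at 3771, 3916 and 3967 normalised reads in Control and at 3624, 3911 and 4276 with FL-ApoE4. The lowest and the highest library were both treated ones, so the groups overlapped. Its log2 fold change was 0.02 ± 0.07 (SE) and its 95% interval, -0.14 to 0.18, corresponds to 0.905 to 1.13 times the Control level. Without Control replicate 1 the log2 value was 0.00 ± 0.07.

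Of the class B receptors, Cd36 takes up long-chain fatty acids and oxidised lipoproteins, and Scarb1 is the receptor for high-density lipoprotein that mediates selective uptake of cholesteryl ester. Cd36 was low, at 53.2, 58.8 and 59.4 normalised reads in Control and 46.9, 40.8 and 51.9 with FL-ApoE4. All 3 treated libraries lay below all 3 controls, as did those of 10.9% of all tested genes. The values rest on 42 to 63 reads a library, and the exact Poisson 95% intervals, which cover counting error only, overlapped between groups (38.9 to 67.9 in FL-ApoE4 replicate 3, 39.4 to 70.4 in Control replicate 1). On the log2 scale the fold change was -0.30 ± 0.16 (SE, limma adjusted p = 0.492), and -0.35 ± 0.19 without Control replicate 1. A scaling to equal library totals made the groups overlap.

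Scarb1 was at 6628, 7108 and 7283 normalised reads in Control and 7633, 7419 and 6919 with FL-ApoE4. The groups overlapped through FL-ApoE4 replicate 3. The log2 fold change was 0.06 ± 0.06 (SE) with a 95% interval of -0.08 to 0.20, or 0.949 to 1.15 times the Control level. Its log2 value was 0.02 ± 0.06 without Control replicate 1.

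**Figure D3:**
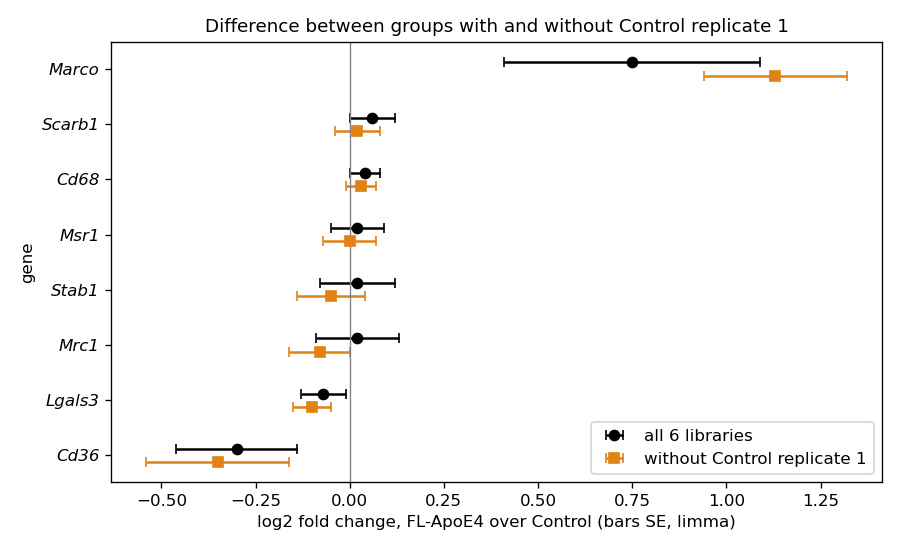
Log2 fold change, FL-ApoE4 over Control (horizontal axis; bars, SE from limma), for each measured receptor (vertical axis) with all 6 libraries (circles) and without Control replicate 1 (squares). Marco moves from 0.75 to 1.13 when that library is left out, Mrc1 from 0.02 to -0.08, and the others by less.

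Cd68 encodes macrosialin, a glycosylated class D receptor held mostly in late endosomes and lysosomes and widely used as a marker of phagocytic cells. It was at 55163, 56729 and 57293 normalised reads in Control and at 58576, 58044 and 57794 with FL-ApoE4. Every treated library lay above every control, as in 11.1% of all tested genes, by a narrow gap between 57293 and 57794. The log2 fold change was 0.04 ± 0.04 (SE, limma adjusted p = 0.724), and its upper 95% bound corresponds to 1.1 times the Control level. The log2 value was 0.03 ± 0.04 without Control replicate 1. With each library's trend with exonic length removed, a setting chosen after the data were seen, the log2 value was 0.00 and the groups overlapped.

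Stab1 encodes stabilin-1, a multidomain clearance receptor of macrophages and sinusoidal endothelium. It was at 2482, 2809 and 2886 normalised reads in Control and at 2397, 2958 and 2933 with FL-ApoE4. Replicate 1 was the lowest library in each group. The log2 fold change was 0.02 ± 0.10 (SE), with a 95% interval of -0.22 to 0.25, and -0.05 ± 0.09 without Control replicate 1.

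Among the lectins, Mrc1 encodes the mannose receptor CD206, an endocytic receptor for mannosylated glycoproteins often taken as a marker of alternative activation. It was at 2574, 3171 and 3218 normalised reads in Control and at 2669, 3253 and 3171 with FL-ApoE4. As for Stab1, replicate 1 was the lowest library in each group. The log2 fold change was 0.02 ± 0.11 (SE), and -0.08 ± 0.08 without Control replicate 1.

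Mrc1 and Stab1 had the closest pattern of any pair of receptors over the 6 libraries (Pearson r = 0.96, on log2 values, with no p). Msr1 followed them at 0.82 with Stab1 and 0.71 with Mrc1, and Cd36 and Lgals3 had 0.90, Scarb1 and Cd68 0.85. All pairs share the same libraries and depths. FL-ApoE4 replicate 1 lay below the other treated libraries by 0.30 in Stab1, 0.27 in Mrc1 and 0.17 in Msr1 on the log2 scale, and these genes have long exonic sequences (10288, 6371 and 6344 bp). With the length trend of each library removed those gaps were 0.14, 0.19 and 0.10. In Scarb1, of 8500 bp, FL-ApoE4 replicate 1 was instead 0.09 above the other treated libraries, and 0.21 above with the length trend removed. Whether length accounts for any of these gaps was not tested. In the Control group, replicate 1 lay 0.20 below the other controls in Stab1 and 0.31 below in Mrc1, and 0.14 and 0.28 below with the length trend removed.

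Lgals3 encodes galectin-3, a secreted and cytosolic lectin for beta-galactosides that marks activated microglia. It was at 52435, 56187 and 56407 normalised reads in Control and at 53756, 49608 and 53936 with FL-ApoE4. Control replicate 1 lay among the treated libraries. On the log2 scale the fold change was -0.07 ± 0.06 (SE, limma adjusted p = 0.653), and -0.10 ± 0.05 without Control replicate 1 (adjusted p = 0.335). The groups no longer overlapped there, against only Control replicates 2 and 3. How many of all tested genes separated in that setting was not counted.

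Clec7a encodes dectin-1, the beta-glucan receptor, and Cd163 the receptor for haemoglobin and haptoglobin complexes. Both are listed at 0 in each of the 6 libraries, as are 15958 of the 40202 listed genes. B2m, which nearly all cells transcribe, is among them, so a value of 0 is given only as listed and no limit is drawn from it.

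Per kilobase of annotated exon, Cd68 was the most abundant receptor at 45558 ± 962 normalised reads per kb (SD over 6 libraries). Lgals3 followed at 28914 ± 1360, with no overlap between the libraries of the pair. Next came Scarb1 at 843 ± 42.4, Msr1 at 616 ± 34.4, Marco at 479 ± 167, Mrc1 at 472 ± 47.6, Stab1 at 267 ± 23.6 and Cd36 at 14.4 ± 1.99 per kb. Neighbours in this order had separate ranges except Msr1 with Marco and Marco with Mrc1. Marco exceeded Mrc1 in 4 of the 6 libraries and was below it in Control replicates 2 and 3. Exonic length is that of all annotated transcripts together, so the per-kb level of genes with many transcript forms is understated.

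**Figure D4:**
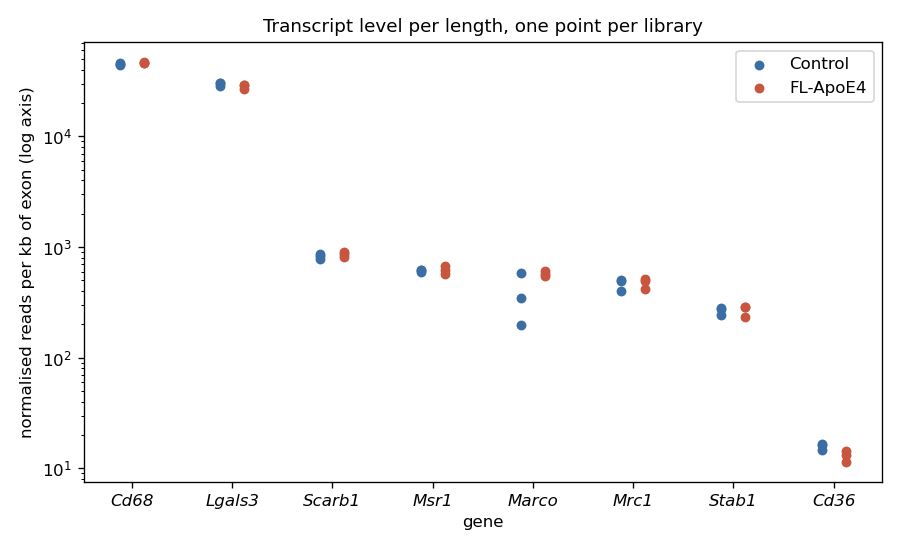
Normalised reads per kb of exon (vertical log axis) for each measured receptor (horizontal axis), one point per library, Control on the left and FL-ApoE4 on the right of each gene. The receptors span from 11.4 per kb (lowest Cd36 library) to 46600 per kb (highest Cd68 library), and Marco in the Control group shows the widest spread.

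Genes around these receptors were read from lists of other scavenger receptors, other pattern lectins, dectin-1 signalling, lipid uptake and storage, lysosomal membrane proteins and cathepsins, and alternative activation. The lists held 128 genes apart from the 10 receptors, of which 109 were tested. With all libraries 0 of the 109 were called by limma and by edgeR, and DESeq2 called 11, against 2.85% of all genes with an adjusted p. Of these, 10 were higher and 1 lower with FL-ApoE4, and they are not named here. For single related genes below, called or not called refers to limma, so DESeq2 may have called some of them. At an unadjusted limma p under 0.05, 20 were higher and 6 lower, against 6.81% and 6.33% of all tested genes. The median log2 fold change was 0.03. Groups did not overlap in 21 higher and 9 lower genes, against 11.1% and 10.9% of all tested genes. Without Control replicate 1, limma called 18 higher and 4 lower (2.93% and 1.69% of all tested genes were), with a median of 0.04 against 0.00 over all tested genes. Here and below, a related gene is said to rise or fall without that library only where limma called it. The lists, and the interest in Control replicate 1, were chosen with earlier results of these data known. Counts here and for each list below are therefore a description and no test against these shares.

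Among the other pattern lectins, of 20 tested, limma called 7 higher and 0 lower without Control replicate 1, against 2.93% and 1.69% of all tested genes. Lectins not called in that setting had values of both signs. The list's median was then 0.29, against 0.03 with all libraries. Control replicate 1 was above the other controls by a median of 0.20 on the log2 scale in this list. Lgals9, which encodes galectin-9, was at 1171, 1035 and 1143 normalised reads in Control and at 1672, 1613 and 1747 with FL-ApoE4. All treated libraries lay above all controls, at a log2 fold change of 0.59 ± 0.07 (SE, limma adjusted p = 0.0666), and it rose by 0.62 without Control replicate 1. Clec12a, an inhibitory lectin for uric acid crystals, was at 1631, 981 and 1073 in Control and 1950, 1922 and 1886 with FL-ApoE4.

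For Clec12a all treated libraries lay above all controls, with a log2 fold change of 0.68 ± 0.17 over 6 libraries (limma adjusted p = 0.198) and 0.90 ± 0.06 without Control replicate 1. The C-type lectins of the Clec4a cluster on immune cells had values of 0.38 ± 0.08 (Clec4a3) and 0.56 ± 0.15 (Clec4a2) with all libraries, and Clec4a3 rose by 0.31 without Control replicate 1. Clec4a1, Cd302, Clec4e and Clec5a also rose in that setting, by 0.81, 0.46, 0.37 and 0.37. With all libraries none of these 4 was called, at 0.59 ± 0.24, 0.30 ± 0.14, -0.24 ± 0.45 and 0.16 ± 0.16 (limma adjusted p = 0.344, 0.403, 0.883 and 0.739), so Clec4e had the other sign. For Clec5a, Control replicate 1, at 10853 normalised reads, lay above all treated libraries (8913 to 9231). Clec4e encodes Mincle, an activating receptor for mycobacterial glycolipid and dead cells, and stood at 28269 in Control replicate 1 against 8588 and 7332 in the other controls and 9635 to 10940 with FL-ApoE4. Control replicate 1 thus lay above all treated libraries for Clec4e, and inside the treated range for Marco. The Clec4a genes are close relatives, and reads could be split between them in counting.

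**Figure D5:**
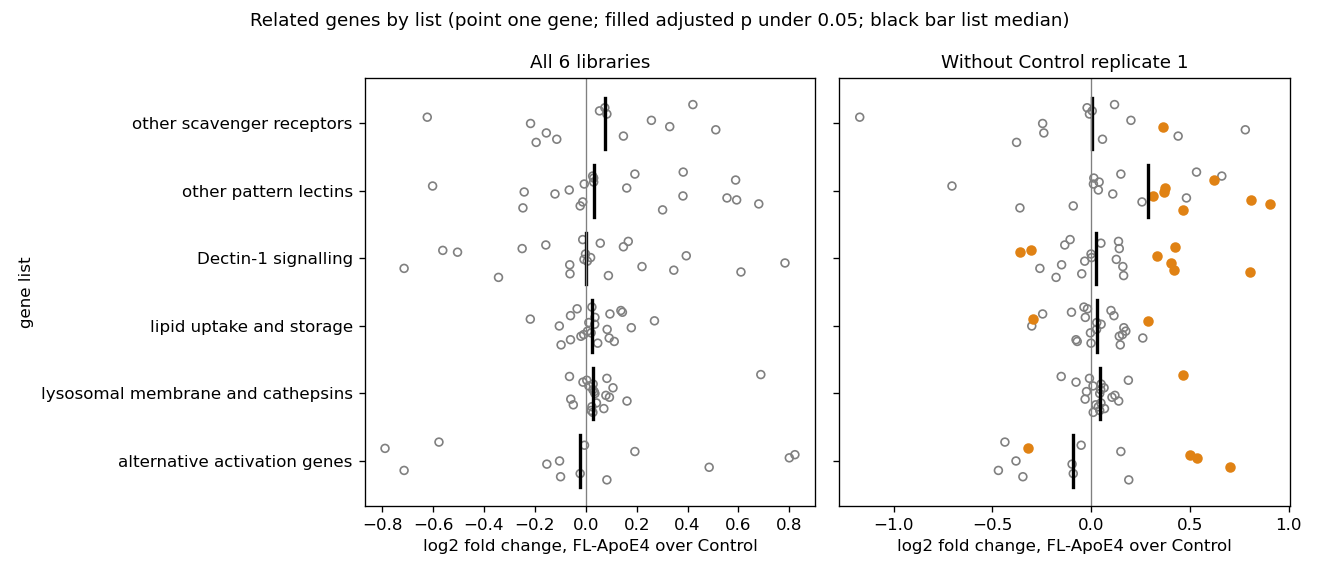
Log2 fold change, FL-ApoE4 over Control (horizontal axes, each on its own scale), of each tested related gene by list (vertical axis), with all 6 libraries on the left and without Control replicate 1 on the right; filled points have an adjusted p under 0.05 and black bars are list medians. The median of the other pattern lectins moves from 0.03 to 0.29 when that library is left out.

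Of the other scavenger receptors, 1 of 13 tested genes was called without Control replicate 1, against 4.62% of all tested genes. That gene was Lgals3bp, a secreted galectin-binding protein with a scavenger receptor domain, at 3890, 3508 and 3789 normalised reads in Control and 4537, 4634 and 4887 with FL-ApoE4 (log2 fold change 0.33 ± 0.06 over all libraries, limma adjusted p = 0.113, and 0.36 without Control replicate 1). Cxcl16, a transmembrane chemokine that also binds oxidised lipoprotein, had 0.51 ± 0.27, Scara3 had 0.26 ± 0.18, and Colec12, a collectin of the class A type, had -0.15 ± 0.08.

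In the dectin-1 signalling list 5 of 22 tested genes rose and 2 fell without Control replicate 1, against 2.93% and 1.69% of all tested genes. Ptpn6, the phosphatase SHP-1 that dampens such receptors, was at 11918, 13162 and 13854 in Control and 17305, 17524 and 16288 with FL-ApoE4, a log2 fold change of 0.39 ± 0.07 over all libraries (limma adjusted p = 0.112) and 0.33 without Control replicate 1. Lyn, which encodes a Src family kinase, had 0.35 ± 0.07 over all libraries (limma adjusted p = 0.155) and rose by 0.42 in that setting. Syk, the kinase that dectin-1 engages, was at 16863, 9495 and 9573 normalised reads in Control and 11669, 13730 and 13005 with FL-ApoE4. Control replicate 1 lay above all treated libraries, and the log2 value was 0.15 ± 0.21 with all libraries (limma adjusted p = 0.837) and 0.42 without that one, where it rose. Nfatc2, which encodes a transcription factor of the NFAT family, had 0.78 ± 0.29 with all libraries (limma adjusted p = 0.314) and rose by 0.40 without Control replicate 1. The NF-kB subunit genes Rel and Relb had -0.50 ± 0.12 and -0.56 ± 0.20 with all libraries (limma adjusted p = 0.179 and 0.295) and fell by 0.36 and 0.30 without Control replicate 1. Card9, the adaptor between Syk and NF-kB, is listed at 0.

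Of 23 lipid uptake and storage genes, 1 rose and 1 fell without Control replicate 1, against 2.93% and 1.69% of all tested genes. Nr1h3, the oxysterol receptor LXR alpha, had 0.27 ± 0.06 with all libraries (limma adjusted p = 0.155) and rose by 0.29 in that setting. Plin2, the coat protein of lipid droplets, had -0.22 ± 0.08 (limma adjusted p = 0.304) and fell by 0.29. Lpl, lipoprotein lipase, and Slc27a1, a fatty acid transporter, had 0.18 ± 0.05 and 0.14 ± 0.05 and were not called.

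Among 21 lysosomal genes, the group in which Cd68 functions, 1 rose without Control replicate 1, against 2.93% of all tested genes. This was Tfeb, a transcription factor for lysosomal genes, at 762, 1196 and 1240 normalised reads in Control and 1766, 1658 and 1617 with FL-ApoE4 (log2 fold change 0.69 ± 0.18 over all libraries, limma adjusted p = 0.198; 0.46 without Control replicate 1). The cathepsin genes Ctsh and Ctss had 0.16 ± 0.05 and 0.09 ± 0.05 and were not called.

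The alternative activation list, to which Mrc1 and Cd163 belong, had 13 other tested genes, of which 3 rose and 1 fell without Control replicate 1. In that setting 2.93% and 1.69% of all tested genes did so. Maf, a transcription factor of macrophages, was at 925, 1580 and 1632 in Control and 2416, 2421 and 2153 with FL-ApoE4. It lay above all controls in every treated library and rose by 0.53 without Control replicate 1, while its value over all libraries was 0.80 ± 0.20 (limma adjusted p = 0.198). Il10ra, a chain of the interleukin-10 receptor, had 0.49 ± 0.18 with all libraries, where the groups overlapped (limma adjusted p = 0.306), and rose by 0.70 without Control replicate 1. Socs3, a brake on cytokine signalling, had -0.79 ± 0.35 with all libraries (limma adjusted p = 0.398) and fell by 0.32 without that library. Hmox1, haem oxygenase-1, was not called in either setting, at -0.71 ± 0.21 with all libraries (limma adjusted p = 0.228) and -0.47 without Control replicate 1 (adjusted p = 0.0574). Tgm2, a transglutaminase, was not called either, at -0.58 ± 0.18 with all libraries and -0.44 without that one (limma adjusted p = 0.243 and 0.202). Spi1, which encodes PU.1, was at 23018, 16307 and 15724 in Control and 22231, 21012 and 19332 with FL-ApoE4, with Control replicate 1 above all treated libraries, as for Clec4e. Its log2 fold change was 0.20 ± 0.14 with all libraries (limma adjusted p = 0.592), and it rose by 0.38 ± 0.06 without that one (adjusted p = 0.0124).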

How the data were processed

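RNA of 3 Control and 3 FL-ApoE4 libraries of BV2 cells was prepared with a directional kit, per the labels' protocols. Tools named per the submitters' processing notes are DESeq2 1.30.1, HTSeq, HISAT2 2.2.1 and FastQC 0.11.8, with genome GRCm39. What each did, and whether strand was used, is not given in the sources used here. Deposited signal values are normalised reads; the table gives 1 per library for each of 40202 genes. Dividing a column by its lowest nonzero value gave whole numbers for 100% of values (tolerance 0.01), so read counts were recovered from the deposited values.

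The test was limma 3.58.1 (R 4.3.3, mean-variance trend, two-sided) on log2(value + 1) for the 14079 genes with a mean of at least 10, with Benjamini-Hochberg adjustment over all of them and a threshold of 0.05. Fold changes on this scale understate those of low genes. The authors' deposited table of log2 fold changes and adjusted p-values was used for their own values only. Alternatives included edgeR 4.0.16 and DESeq2 1.42.0 on the recovered counts; the tests were tried on simulated data first. Exonic length per gene came from GENCODE M21 (GRCm38; known for 92% of tested genes) and promoters from RefSeq (GRCm38.p6), which is not the build of the deposited values. Related genes named are the 4 of lowest p in each list, those called without Control replicate 1, and for Marco and Cd68 the 3 genes of highest Pearson r. Members, lists and the interest in Control replicate 1 were chosen with earlier results of these data known. Some genes that this rule names are not reported here.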

Additional observations from a re-analysis of the deposited data

How the results depend on the processing

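Over the 8 measured receptors and 22 alternatives each, 157 of 176 values kept their sign and side of the threshold, 4 (all Marco without Control replicate 1) became called, and 15 changed sign, each of them small. Leaving out 1 library at a time gave 0 to 651 called genes, 0 to 1 receptors and 0 to 22 related genes, with log2 fold changes of -0.045 to 0.074 for Msr1, -0.081 to 0.112 for Mrc1 and -0.050 to 0.115 for Stab1; the counts of 651, 1 and 22 came without Control replicate 1. Including genes with any read gave 1 called gene. DESeq2 called 367 genes and 11 related genes. The following settings were added after the data were seen. Without Control replicate 1, edgeR called 691 genes, 1 receptor and 23 related genes, with -0.072 for Mrc1 and -0.040 for Stab1. DESeq2 then called 903, 1 and 25, with -0.001 for Msr1, -0.075 for Mrc1 and -0.043 for Stab1. Without both libraries numbered 1 limma called 1767, 1 and 35, with -0.006 for Scarb1. With the length trend removed it called 18 genes and 1 related gene, with -0.001 for Cd68; the cause of these changes was not tested. The replicate block called 0 genes, receptors and related genes (2177 genes at an unadjusted p under 0.05, against 1850). Same-numbered samples deviated together by r = 0.132, 0.0679 and -0.026. Control replicate 1 stood apart from the other libraries, so these values cannot decide whether the numbers pair the samples. The labels do not say it either. With 3 libraries against 3, an exact permutation test of 1 gene cannot go below 0.1. Cd36, at 42 to 63 reads a library, is the measured receptor most limited by depth.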

Other observations

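Among the 3271 tested genes with a mean of 500 to 2000 normalised reads, the difference between Control replicates 3 and 2 had a median size of 0.06 on the log2 scale. Marco differed by 0.81, and 1 other gene, Tmem120b, by at least as much; both were picked out after their values were seen. The genes most like Marco over the 6 libraries (Pearson r on log2 values, n = 6, as a description) were 4930556M19Rik (0.994), Cerkl (0.990) and Slc6a12 (0.989), and 1.1% of tested genes had an r over 0.9. Of these, 4930556M19Rik was low, at 24.7 to 64.6 normalised reads, where counting error is larger. Slc6a12, a betaine and GABA transporter, was at 189, 85.4 and 126 normalised reads in Control and 204, 213 and 212 with FL-ApoE4. It too was higher in Control replicate 3 than in Control replicate 2, and in its case all treated libraries lay above all controls. The genes most like Cd68 were Oxa1l (0.997), Mri1 (0.996) and BC029722 (0.995), with 4.3% of tested genes over 0.9.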
